A study of Mus musculus with 24 samples.

Results

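Secreted Wnt antagonists and R-spondins set how strongly cells respond to Wnt ligands. The 10 genes described here were Wif1, Dkk1, Dkk2, Dkk3, Sfrp1, Sfrp2, Frzb, Rspo1, Rspo2 and Rspo3, taken by name from the 28650 gene names of a whole-genome mouse array. Of 41174 probes, 8 carried the current name of 7 of these genes in the scanner files. A further 5 probes carried older names of the R-spondins (Rspondin for Rspo1, 2610028F08Rik for Rspo2 and Thsd2 for Rspo3), and they were included by matching to current symbols. Of the 13 probes, 12 passed the filter on dim spots, which kept 35477 probes in all. The probe left out was a second Rspo2 probe, A_52_P3524, which was not well above background on any of the 24 arrays. Its log2 ratios were therefore not tested.

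The tissue was the urogenital sinus (UGS), the embryonic tube of epithelium and mesenchyme that gives rise to the prostate in males, taken from C57/Bl6J embryos. In 4 pairs of RNA pools at 6 h and 3 pairs at 12 h, UGS of female embryos whose mothers had been given 50 mg/kg of the androgen dihydrotestosterone (DHT) at 16.0 days post coitum (dpc) was set against UGS of female embryos of vehicle-treated mothers. In 5 further pairs, UGS of unmanipulated males was set against UGS of their female littermates at 17.5 dpc, a stage that the labels call 48 h. Each pool held several embryos with their accessory ducts dissected away, sexed by gonad, and each pair was hybridised on 2 arrays with exchanged dyes. A replicate is a pair of pools, so p-values measure the spread between pools and not between single embryos. All values below are log2 ratios of DHT over vehicle or male over female, averaged over the 2 arrays of a pair, unless a level is named. In such bulk RNA, fewer cells of a type and less RNA per cell cannot be told apart.

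Wnt proteins bind Frizzled receptors together with the co-receptors LRP5 and LRP6, and stabilise beta-catenin inside the cell. Wif1, Sfrp1, Sfrp2 and Frzb encode secreted proteins that bind Wnt ligands outside the cell. Dkk1 encodes a secreted protein that binds LRP5 and LRP6 and blocks them. Dkk2 binds the same co-receptors and can block or weakly activate them depending on the Kremen receptors present, while Dkk3 is a divergent family member. R-spondins act in the opposite sense. They bind LGR receptors and the membrane ligases ZNRF3 and RNF43, which otherwise remove Frizzled from the surface, and so raise the response to Wnt. In the developing urogenital tract, Wnt signals pass between epithelium and mesenchyme during budding and duct growth.

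The promoters of 3 genes whose RNA differed between the sexes are shown because, among the 6 genes matched to a RefSeq window, they had the largest differences, with Wif1 higher and Dkk2 and Rspo1 lower in males. Each sequence is from RefSeq GRCm38.p6, 5′ to 3′ on the + strand, from 250 bases before the listed transcript start up to the base before the annotated gene. Capitals mark a match to the hexamer TGTTCT of androgen response elements or to the TCF/LEF core CTTTGA, searched on both strands. The Wif1 window is chr10:121033754-121034003, the Dkk2 window chr3:132085042-132085265 and the Rspo1 window chr4:124986180-124986400.
Wif1: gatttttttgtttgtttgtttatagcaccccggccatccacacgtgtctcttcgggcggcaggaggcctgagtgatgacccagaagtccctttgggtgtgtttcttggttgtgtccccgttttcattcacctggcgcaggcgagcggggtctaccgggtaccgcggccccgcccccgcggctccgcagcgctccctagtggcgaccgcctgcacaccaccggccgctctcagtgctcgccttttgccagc
Dkk2: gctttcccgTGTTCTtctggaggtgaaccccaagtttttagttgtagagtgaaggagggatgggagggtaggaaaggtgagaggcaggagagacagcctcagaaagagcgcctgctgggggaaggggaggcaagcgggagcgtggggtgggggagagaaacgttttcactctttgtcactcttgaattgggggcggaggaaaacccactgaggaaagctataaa
Rspo1: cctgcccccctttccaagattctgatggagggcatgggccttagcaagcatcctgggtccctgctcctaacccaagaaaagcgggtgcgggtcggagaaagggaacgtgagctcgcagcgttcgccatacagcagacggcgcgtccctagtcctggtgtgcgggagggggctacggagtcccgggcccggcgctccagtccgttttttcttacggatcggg
The hexamer occurred in 16.1% of 32817 windows of 250 bases and the TCF/LEF core in 13.8%. No match overlapped another in these windows. Dkk2 had 1 hexamer, with its first base at −241 from the start, and Wif1 and Rspo1 had no match to either short motif. Among the other windows, Dkk1 had 2 TCF/LEF cores and Frzb had 1, and Sfrp2 had no match. A window without a match says only that those letters are not there, and a match is a description of letters, not of binding.

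Before the results, 1 fact about the labels bears on the 6 h comparison. All 6 h pools were labelled female, but the vehicle pools of replicates 2, 3 and 4 carried RNA of the Y-linked gene Eif2s3y at log2 levels of 8.65, 7.64 and 7.80. The female pools at 17.5 dpc lay at 5.99 to 6.37 and the male pools at 8.51 to 9.01. The vehicle pool of 6 h replicate 1 read 6.02, so of the 4 pairs that one alone lacked the Eif2s3y signal. Ddx3y, also Y-linked, read 5.98 there and 7.67, 6.8 and 7.01 in the other vehicle pools. The dimmer Y-linked gene Uty did not set replicate 1 apart, with vehicle levels of 6.2, 6.44, 6.13 and 6.13 in replicates 1 to 4. Kdm5d, also dim, had vehicle levels of 6.23, 6.64, 6.43 and 6.45. Only that of replicate 1 lay within the 6.10 to 6.31 of female pools at 17.5 dpc. The Kdm5d ratios of −0.26, −0.52, −0.33 and −0.26 did not set replicate 1 apart. Below, a pool that lacked Y-linked RNA is one without the Eif2s3y and Ddx3y signals. Xist, the RNA of the inactive X of females, read 11.58, 10.29, 11.24 and 11.21 in the 4 vehicle pools. At 17.5 dpc it read 11.96 to 12.60 in female and 6.42 to 6.97 in male pools. All 4 vehicle pools thus held female RNA, and the Eif2s3y level of replicate 2 does not make it a male pool. Because of the Y-linked signal, each 6 h result is given with all 4 pairs and with the value of replicate 1. Where a fit kept replicate 1 only, that lone pair was assumed to vary like the pairs of the other comparisons, so a call lost there says little. Median raw spot signals per array lay between 98.14 and 151.1 in either dye. Over all probes, which are not independent replicates, the 2 swapped arrays of a pair correlated at r = 0.351 to 0.741 between the sexes. At 12 h that range was −0.216 to 0.09, and at 6 h it was −0.512 to −0.078. The labelled tissue was checked against 8 genes of UGS patterning and development, of which 6 were well above background in every channel. Each comparison was hybridised on its own day, so day and comparison cannot be told apart. The pools of a pair were always on the same array.

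Males were set against female littermates to ask what differs under the embryo's own hormones. Of the 12 probes, 3 were higher in males (Wif1, Rspo3 and Sfrp2) and 4 were lower (Dkk2, Rspo2, Rspo1 and Dkk3), against 6.19% of all 35477 probes called in either direction by limma at an adjusted p of 0.05. Separately, 3.11% of all probes were called higher and 3.08% lower. By gene, with the brightest probe of each, 3 rose, 4 fell and 3 did not pass. The median absolute log2 ratio of the 10 genes was 0.589, beside 0.041 over 24715 genes. The 10 genes were chosen with earlier results of these data known, so these contrasts with all probes and genes are descriptions.

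**Figure D1:**
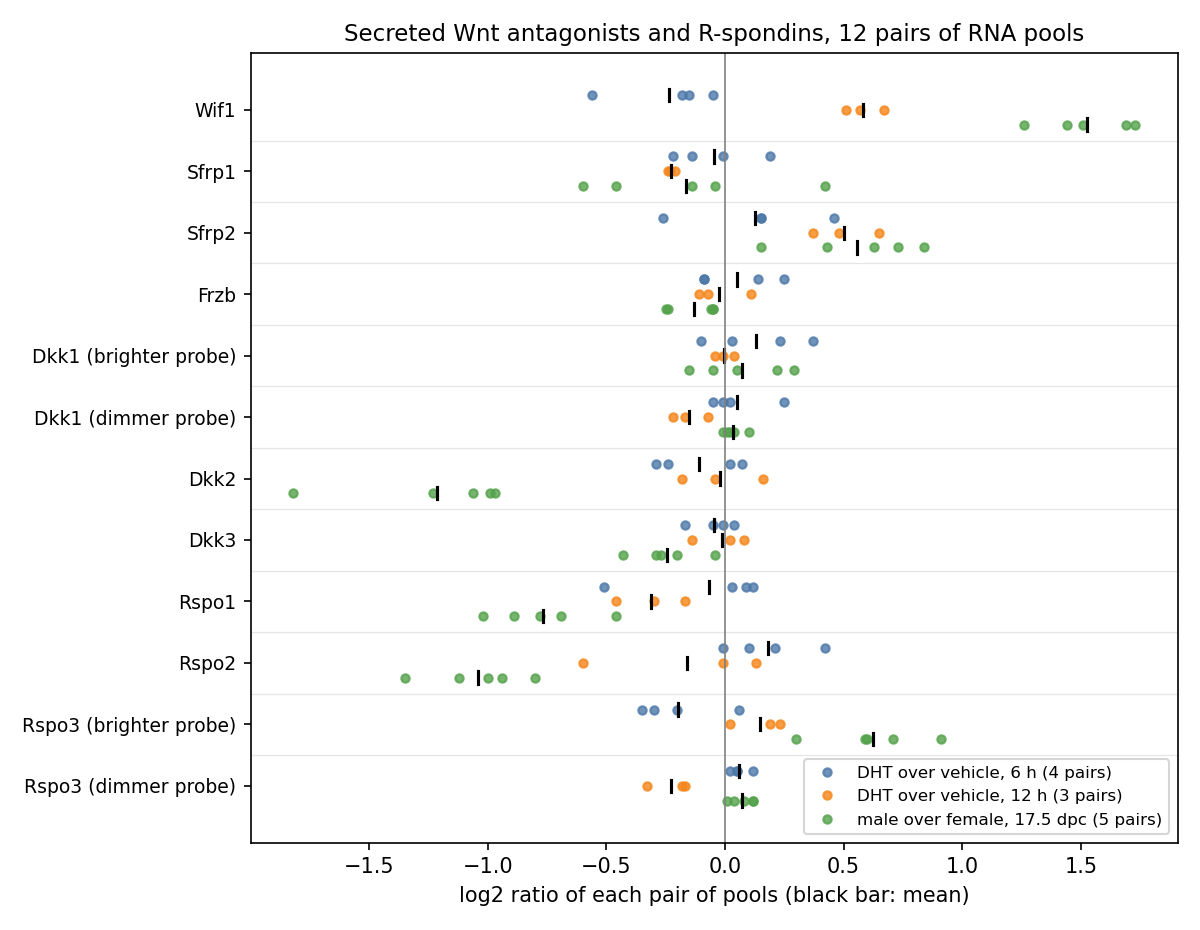
Log2 ratio of each pair of pools (horizontal axis) for 12 probes of the 10 genes (rows), in 3 comparisons. Points are pairs and black bars are means. For Wif1 the male-female points (1.26 to 1.73) lie right of the 12 h points (0.51 to 0.67), which lie right of the 6 h points (−0.56 to −0.05), while male-female points of Dkk2, Rspo1 and Rspo2 all lie left of 0.

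Wif1 (probe A_51_P484526), the Wnt-binding inhibitor, showed the largest rise of the 10 genes. Its log2 level was 8.66, 8.24, 8.55, 8.88 and 8.94 in male pools 1 to 5. In their female partners it was 7.23, 6.98, 7.04, 7.15 and 7.25. Every male pool lay above every female pool, and the groups did not overlap. The ratios were 1.44, 1.26, 1.51, 1.73 and 1.69, a mean of 1.53 or 2.88-fold (SD 0.19, n = 5, limma adjusted p = 1.24e-07).

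Sfrp2 (A_51_P520849), an antagonist of the Frizzled-related family, was the brightest of the probes and was higher in all male pools than in their partners. Male levels were 12.90, 12.68, 12.27, 12.83 and 13.23, and female levels were 12.27, 12.25, 12.12, 12.10 and 12.39. The groups overlapped, because male pool 3 at 12.27 lay within the female range. The ratios of 0.63, 0.43, 0.15, 0.73 and 0.84 averaged 0.56 or 1.47-fold (SD 0.28, n = 5, limma adjusted p = 0.0033). The swapped array of pair 1 was missing for this spot, so that pair rests on 1 array. Sfrp1 (A_51_P352296), its relative, ranged from −0.60 to 0.42 with a mean of −0.16 (SD 0.40, adjusted p = 0.55 in limma). Frzb (A_51_P286748), also a Wnt-binding antagonist, read −0.25 to −0.05 in the 5 pairs, with a mean of −0.13 (95% interval −0.25 to −0.01, limma adjusted p = 0.243).

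Dkk2 (A_51_P241068), the co-receptor ligand, showed the largest fall. Female levels were 9.85, 10.38, 10.59, 10.59 and 10.65, and male levels were 8.88, 9.39, 8.77, 9.37 and 9.59. Every female pool lay above every male pool. The ratios were −0.97, −0.99, −1.82, −1.23 and −1.06, so Dkk2 was 2.32-fold lower in males (mean −1.21, SD 0.35, n = 5, limma adjusted p = 7.52e-06). Dkk3 (A_52_P220176) fell by 0.24 (SD 0.14, n = 5, limma adjusted p = 0.00897), with ratios of −0.27, −0.04, −0.29, −0.43 and −0.20. Without pair 4 its adjusted p was 0.0516, and with the comparison fitted alone 0.0786. Dkk1, the LRP-blocking antagonist, was measured by 2 dim probes with means of 0.07 (A_51_P379069, 95% interval −0.07 to 0.22) and 0.03 (A_52_P508391, −0.05 to 0.12), and neither passed.

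The R-spondins, which raise the Wnt response, split. Rspo2 (A_51_P222337) read levels of 7.26, 7.10, 7.10, 7.03 and 7.31 in males and 8.06, 8.22, 8.10, 8.38 and 8.25 in females, without overlap. Its ratios of −0.80, −1.12, −1.0, −1.35 and −0.94 made it 2.06-fold lower in males (mean −1.04, SD 0.21, n = 5, limma adjusted p = 1.55e-05). Rspo1 (A_51_P142421) read 7.92, 8.33, 8.22, 7.96 and 7.84 in males and 8.70, 9.02, 8.68, 8.85 and 8.85 in females, again without overlap. Its ratios of −0.78, −0.69, −0.46, −0.89 and −1.02 made it 1.70-fold lower (mean −0.77, SD 0.21, n = 5, limma adjusted p = 0.000113).

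Rspo3 went the other way on its brighter probe (A_52_P337760). Male levels were 7.11, 7.5, 7.15, 7.03 and 7.21 and female levels 6.81, 6.58, 6.56, 6.44 and 6.50, with no overlap. The ratios of 0.30, 0.91, 0.59, 0.60 and 0.71 averaged 0.62 or 1.54-fold higher (SD 0.22, n = 5, limma adjusted p = 0.000138). The second Rspo3 probe (A_51_P428157) lay near background at log2 levels of 6.14 to 6.39. Its mean was 0.07 (limma adjusted p = 0.256), so the probes of Rspo3 disagree in size. At 12 h they also differed in sign.

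**Figure D2:**
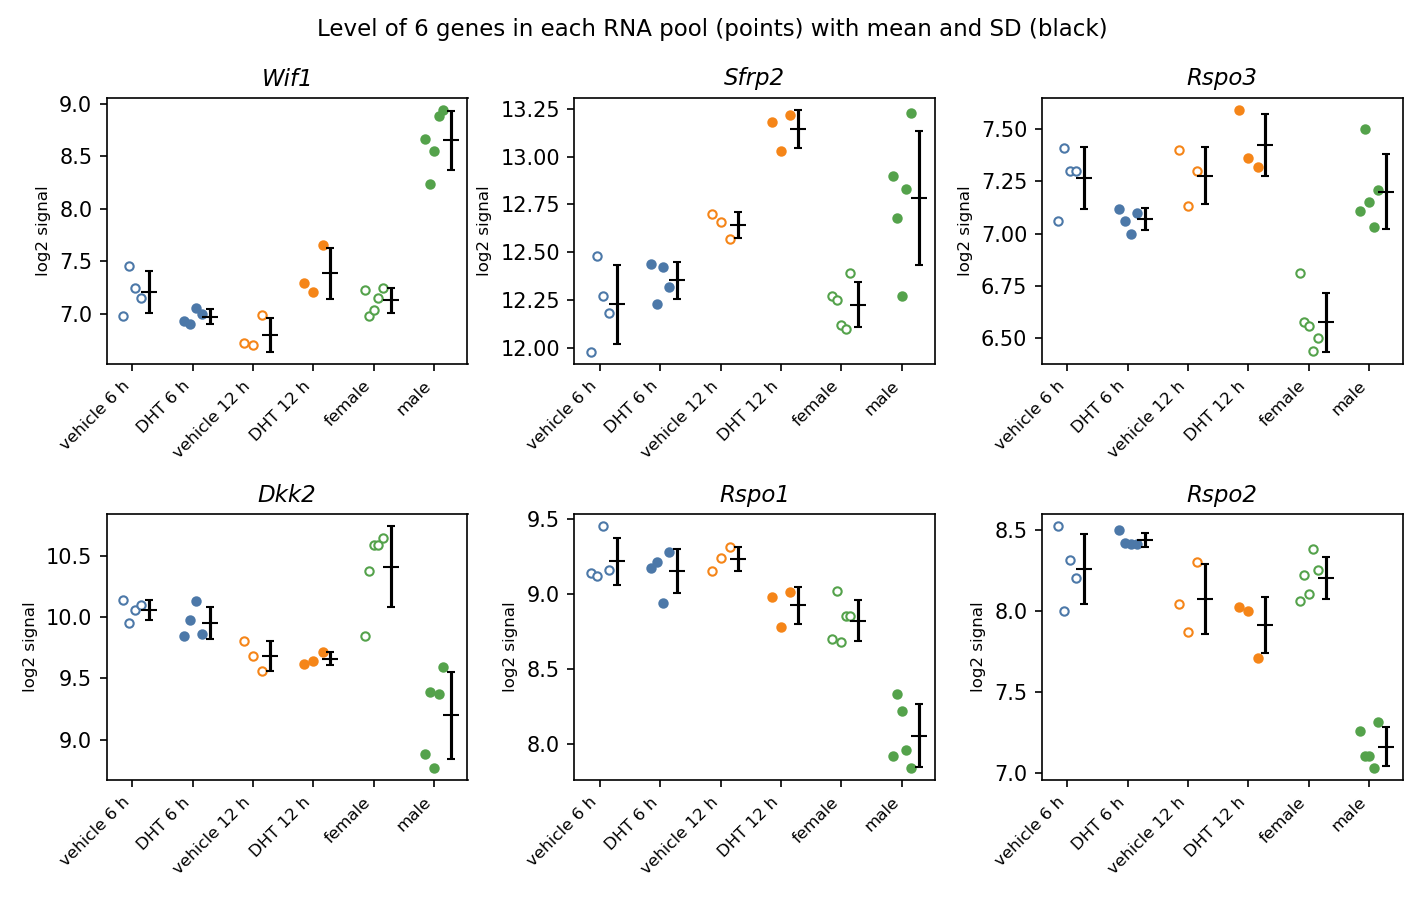
Log2 signal level (vertical axis) of the brightest probe of 6 genes in each RNA pool, with the mean and SD in black. Filled points are DHT or male pools and open points vehicle or female pools. Male pools stand apart from all others for Wif1 (8.24 to 8.94), Rspo1 (7.84 to 8.33) and Rspo2 (7.03 to 7.31).

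Markers of other cell types moved in the same comparison. Of 18 epithelial markers, 10 were higher in males, with pair means of 0.128, 0.349, 0.543, 0.412 and 0.262. Their mean log2 level was 10.45 to 10.79 in male and 10.16 to 10.38 in female pools. Of 14 fibroblast and mesenchyme markers, 5 were lower and 1 was higher, with pair means of −0.593 to −0.027, at 11.35 to 12.02 in male and 11.89 to 12.05 in female pools. Of 11 smooth muscle markers, 4 were lower, at 9.68 to 10.51 in male and 10.09 to 10.60 in female pools. Of 8 immune cell markers, 2 were lower and all had negative means, with pair means of −0.332 to −0.086, at 7.36 to 7.57 in male and 7.63 to 7.81 in female pools. Of 9 Wolffian and Mullerian duct genes, 2 were higher and 2 lower, at 7.07 to 7.21 in male and 7.0 to 7.32 in female pools. Those higher were Calb1, a calcium-binding protein, at 1.53 (SD 0.29, limma adjusted p = 2.74e-05), and Wnt9b at 0.51. Those lower were Amhr2, the receptor of anti-Mullerian hormone, at −1.08 (SD 0.32, limma adjusted p = 3.9e-05), and Wnt7a at −0.77. All epithelial, fibroblast, smooth muscle and immune markers were well above background on every channel, as were 8 of the 9 duct genes. The part of these markers in the values of Dkk2, Rspo1, Rspo2, Wif1 and Sfrp2 was not tested. Skeletal muscle markers varied strongly between pairs, with means of 0.263, −0.469, 1.437, −0.002 and 0.215. Pair 3, which held the highest muscle mean, also held the lowest Sfrp2 ratio and the most negative Dkk2 ratio, and this too was not tested.

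The 12 h comparison asked what DHT changes in the female UGS. Of the 12 probes, 1 was higher (Wif1) and 1 lower (the dim Rspo3 probe), beside 0.276% of all probes called in either direction, 0.0987% higher and 0.178% lower. Wif1 levels were 7.29, 7.21 and 7.66 in DHT pools and 6.72, 6.70 and 6.99 in vehicle pools, so the groups did not overlap. The ratios were 0.57, 0.51 and 0.67, a mean of 0.58 or 1.5-fold (SD 0.08, n = 3, limma adjusted p = 0.0366). The call depended on all 3 pairs, as did every other call at 12 h. Leaving out pair 1, 2 or 3 gave adjusted p-values of 0.112, 0.0924 and 0.148 in limma, with means of 0.59, 0.62 and 0.54. Without any 1 of these pairs, 0 of all probes were called at 12 h, so the lost call says little about Wif1 itself. The arrays without dye swap averaged 0.75 and the swapped arrays 0.41.

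Sfrp2 showed a difference of similar size that missed the threshold. Its levels were 13.18, 13.03 and 13.22 with DHT and 12.70, 12.66 and 12.57 with vehicle, without overlap. The ratios of 0.48, 0.37 and 0.65 averaged 0.50 (SD 0.14, 95% interval 0.23 to 0.78, limma adjusted p = 0.0934). In the third pair, epithelial markers averaged 0.655 and skeletal muscle markers 0.779, against 0.015 and 0.038 in the first. Wif1 also had its highest 12 h ratio, 0.67, in the third pair. The part of these markers in the Sfrp2 and Wif1 values was not tested. Over the list, 0 of 18 epithelial and 0 of 12 skeletal muscle markers passed in limma, although 18 and 11 had a positive mean. Epithelial marker levels were 9.93 to 10.51 with DHT and 9.85 to 9.92 with vehicle.

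The R-spondins at 12 h gave less clear values. Rspo1 read −0.17, −0.46 and −0.30, a mean of −0.31 (95% interval −0.56 to −0.06, limma adjusted p = 0.217). Rspo2 read −0.01, 0.13 and −0.60, so 1 pair set its mean of −0.16. The brighter Rspo3 probe averaged 0.15 (limma adjusted p = 0.517). The dim Rspo3 probe averaged −0.23 (SD 0.09, n = 3, limma adjusted p = 0.0492), from DHT levels of 6.09, 6.05 and 6.10 and vehicle levels of 6.27, 6.23 and 6.43. That call fell away without any 1 of the 3 pairs, with limma adjusted p-values of 0.0939 to 0.159. So did every other call at 12 h. The other antagonists did not pass. Sfrp1 had a mean of −0.22 with a 95% interval of −0.52 to 0.07. Dkk2 at −0.02 (−0.31 to 0.26), Dkk3 at −0.01 (−0.15 to 0.13) and Frzb at −0.02 (−0.17 to 0.13) had means close to 0. Dkk1 averaged −0.01 and −0.15 on its 2 probes.

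The 6 h comparison asked for an early response to DHT. None of the 12 probes passed in limma (0 called), beside 1.69% of all probes in either direction, 0.454% higher and 1.23% lower. At an unadjusted p under 0.05 there were 2 of the 12, beside 4831 of all 35477 probes. Wif1 read −0.05, −0.56, −0.18 and −0.15, with a mean of −0.24 (SD 0.22, n = 4, limma adjusted p = 0.18). The brighter Rspo3 probe read 0.06, −0.35, −0.30 and −0.20, with a mean of −0.20 (limma adjusted p = 0.297). Rspo2 read −0.01, 0.42, 0.10 and 0.21, with a mean of 0.18 (limma adjusted p = 0.54). In replicate 1, whose vehicle pool lacked Y-linked RNA, all 3 lay within 0.06 of 0. In replicates 2 to 4, whose vehicle pools carried it (Y-linked means of −1.272, −0.675 and −0.741), Wif1 and the brighter Rspo3 probe were negative and Rspo2 was positive. In the same replicates Dkk2 read 0.02, 0.07 and −0.24, Rspo1 0.09, −0.51 and 0.12, and Sfrp2 −0.26, 0.15 and 0.15. The part of the Y-linked signal in these values was not tested. With replicate 1 only, 0 of the 12 probes passed in limma.

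The remaining genes did not pass at 6 h. Sfrp2 read 0.46, −0.26, 0.15 and 0.15, and Sfrp1 0.19, −0.01, −0.14 and −0.22. Dkk2 read −0.29, 0.02, 0.07 and −0.24, and Rspo1 0.03, 0.09, −0.51 and 0.12, where replicate 3 stood apart. Both signs occurred among the 4 pairs in each of these genes. Mean ratios of Dkk1, Dkk3, Frzb and the dim Rspo3 probe lay between −0.05 and 0.13. In replicate 1 the Dkk1 probes read 0.37 and 0.25, Dkk3 −0.17, Frzb −0.09 and the dim Rspo3 probe 0.02. Epithelial markers averaged −0.58, −0.469, −0.078 and 0.027 in replicates 1 to 4, with 0 of 18 called by limma. Immune cell markers averaged 0.352, 0.28, 0.141 and 0.106, with 2 of 8 called higher, and 1 of 11 smooth muscle markers was called lower. The part of these markers in the 6 h values was not tested.

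Differences between the comparisons were tested as contrasts of the same fit. Between 12 h and 6 h, 1 of the 12 probes differed, Wif1, by 0.82 (SE 0.123, limma adjusted p = 0.0378), beside 0.259% of all probes (0.197% higher, 0.062% lower). Against replicate 1 alone at 6 h the Wif1 difference was 0.63, and 0 of the 12 passed in limma (4 at an unadjusted p under 0.05). Between the sexes and 6 h, 5 probes differed, beside 5.67% of all probes (2.99% higher, 2.67% lower). They were Wif1 (1.76), Rspo3 on its brighter probe (0.82), Dkk2 (−1.10), Rspo1 (−0.70) and Rspo2 (−1.22). Against replicate 1 alone at 6 h these differences were 1.58, 0.56, −0.92, −0.80 and −1.03, and of the 5 only that of Wif1 passed. Between the sexes and 12 h, 4 probes differed, beside 1.33% of all probes (0.668% higher, 0.662% lower). They were Wif1 (0.95), Dkk2 (−1.19), Rspo2 (−0.88) and the dim Rspo3 probe (0.30). With the replicate number as a block, 2 of these 4 passed, Dkk2 and Wif1. For Sfrp2, whose 12 h and male-female means were 0.50 and 0.56, the difference was 0.05 with a 95% interval of −0.29 to 0.40.

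**Figure D3:**
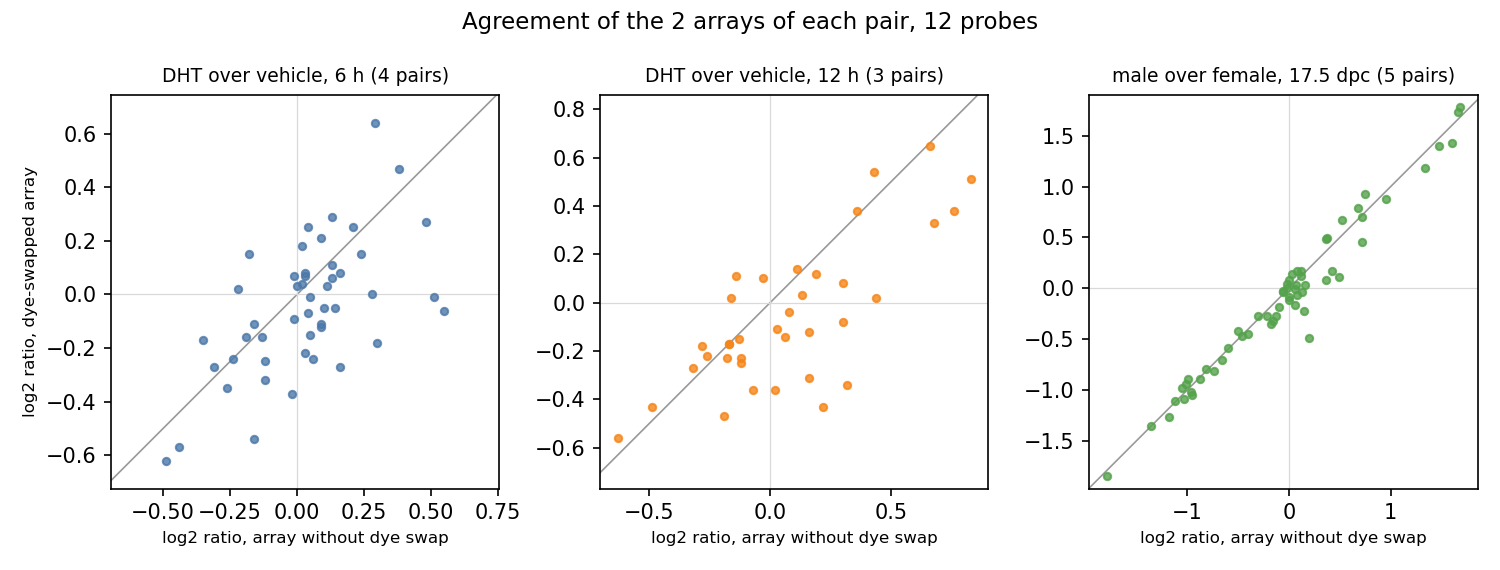
Log2 ratio on the array without dye swap (horizontal axis) against the dye-swapped array (vertical axis) for the 12 probes in each pair, with the line of equality. The panels have different scales. Male-female points follow the line, as for Wif1 with means of 1.55 and 1.51, whereas at 12 h Frzb averaged 0.23 without swap and −0.27 with it.

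The order of levels over the 6 kinds of pool is given as a description, since stage and hybridisation day differed together. Wif1 was highest in males (8.65 ± 0.28, SD, n = 5), followed by DHT at 12 h (7.38 ± 0.24, n = 3), vehicle at 6 h (7.21 ± 0.20, n = 4), females (7.13 ± 0.12, n = 5), DHT at 6 h (6.97 ± 0.07, n = 4) and vehicle at 12 h (6.80 ± 0.16, n = 3). Males stood clear of the next group, and all lower neighbours overlapped. Of the vehicle pools at 6 h, the one without Y-linked RNA read 6.98 and the others 7.46, 7.25 and 7.15, so the place of that group above females rested on the latter. Dkk2 was highest in females (10.41) and lowest in males (9.20), with the 6 h pools at 10.06 and 9.95 and the 12 h pools at 9.68 and 9.66. Gaps without overlap separated DHT 6 h from vehicle 12 h, and DHT 12 h from males. The vehicle 12 h pools (9.56 to 9.81) did overlap the male pools (8.77 to 9.59). Rspo1 ran from 9.23 (vehicle 12 h) and 9.22 (vehicle 6 h) through 9.15, 8.92 and 8.82 to 8.05 in males, and Rspo2 from 8.44 (DHT 6 h) to 7.16 in males. For both genes only the males stood clear of their neighbour. The brighter Rspo3 probe ran from 7.42 (DHT 12 h) to 7.07 (DHT 6 h) in overlapping steps and then to 6.58 in females, so here the female pools were the ones that stood apart.

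The other genes had other orders. Sfrp2 was highest with DHT at 12 h (13.14) and lowest in females and vehicle at 6 h (both 12.23), with males at 12.78 and vehicle at 12 h at 12.64. Sfrp1 lay at 9.0 to 9.37 in all 6 h pools and at 9.83 to 10.39 in all 12 h pools, with no overlap. Frzb means were 7.43 and 7.37 at 6 h, 7.07 and 7.04 at 12 h, and 6.90 and 6.78 at 17.5 dpc. Dkk3 spanned only 7.83 to 8.21 in group means and all neighbours overlapped, as did those of both Dkk1 probes, whose means were 6.35 to 6.95.

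Other parts of the Wnt pathway were described by lists chosen with earlier results known. Of 63 measured genes in 4 lists, 2 were called at 6 h, 1 at 12 h and 13 between the sexes. Over all genes, 0.514% were called higher and 1.23% lower at 6 h, and 0.117% and 0.174% at 12 h. Their median log2 ratio between the sexes was −0.009, beside 0.001 over all genes, of which 3.57% were higher and 3.69% lower. Among 10 further secreted modulators, 0 were higher and 2 lower in males by limma, among them Igfbp4, an IGF-binding protein that can also bind Wnt receptors, at −0.33 (SD 0.16, limma adjusted p = 0.00117). Sfrp4, Sfrp5, Rspo4, Sost and Notum did not pass. Dkk4 had no measured probe. Among 20 ligands, 3 were higher and 3 lower. Wnt4 rose by 0.94 (SD 0.19, limma adjusted p = 4.77e-06), Wnt9b, a ligand of the nephric duct, by 0.51 and Wnt6 by 0.33, while Wnt7a, a ligand of Mullerian duct epithelium, fell by 0.77, Wnt9a by 0.35 and Wnt5b by 0.32. At 12 h Wnt5b alone of the ligands was called, at −0.28 (SD 0.11, n = 3, limma adjusted p = 0.043).

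Among 23 receptors and co-receptors, 1 was higher and 1 lower between the sexes. The R-spondin receptors Lgr4, Lgr5 and Lgr6 read 0.06, −0.08 and 0.04 there and did not pass. At 6 h, Ryk, a Wnt co-receptor, fell by 0.20 (SD 0.13, limma adjusted p = 0.0307). Among 10 feedback and target genes, 1 was higher and 2 lower in males. Sp5, a transcription factor gene induced by Wnt, rose by 0.79 (SD 0.19, limma adjusted p = 8.44e-06) and Cd44, an adhesion receptor, fell by 0.45 (SD 0.29, limma adjusted p = 0.00381). Nkd2 was the other gene called lower, at −0.30 (SD 0.20, limma adjusted p = 0.0285), and Axin2 read −0.04 (limma adjusted p = 0.852). Of these 10 genes, 2 had a positive and 8 a negative mean in males against females, with a median of −0.092. Lef1, a nuclear partner of beta-catenin, fell by 0.43 at 6 h (SD 0.16, n = 4, limma adjusted p = 0.0143). In replicates 1 to 4 Lef1 read −0.65, −0.37, −0.27 and −0.43 and Ryk −0.33, −0.27, −0.17 and −0.04. Both were thus most negative in replicate 1, the pair whose vehicle pool lacked Y-linked RNA. Replicate 1 also had the lowest means of epithelial (−0.58), skeletal muscle (−0.433) and smooth muscle (−0.295) markers. Its neuron and Schwann cell (0.562) and immune cell (0.352) means were the highest. The part of these markers in the Lef1 and Ryk values was not tested.

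**Figure D4:**
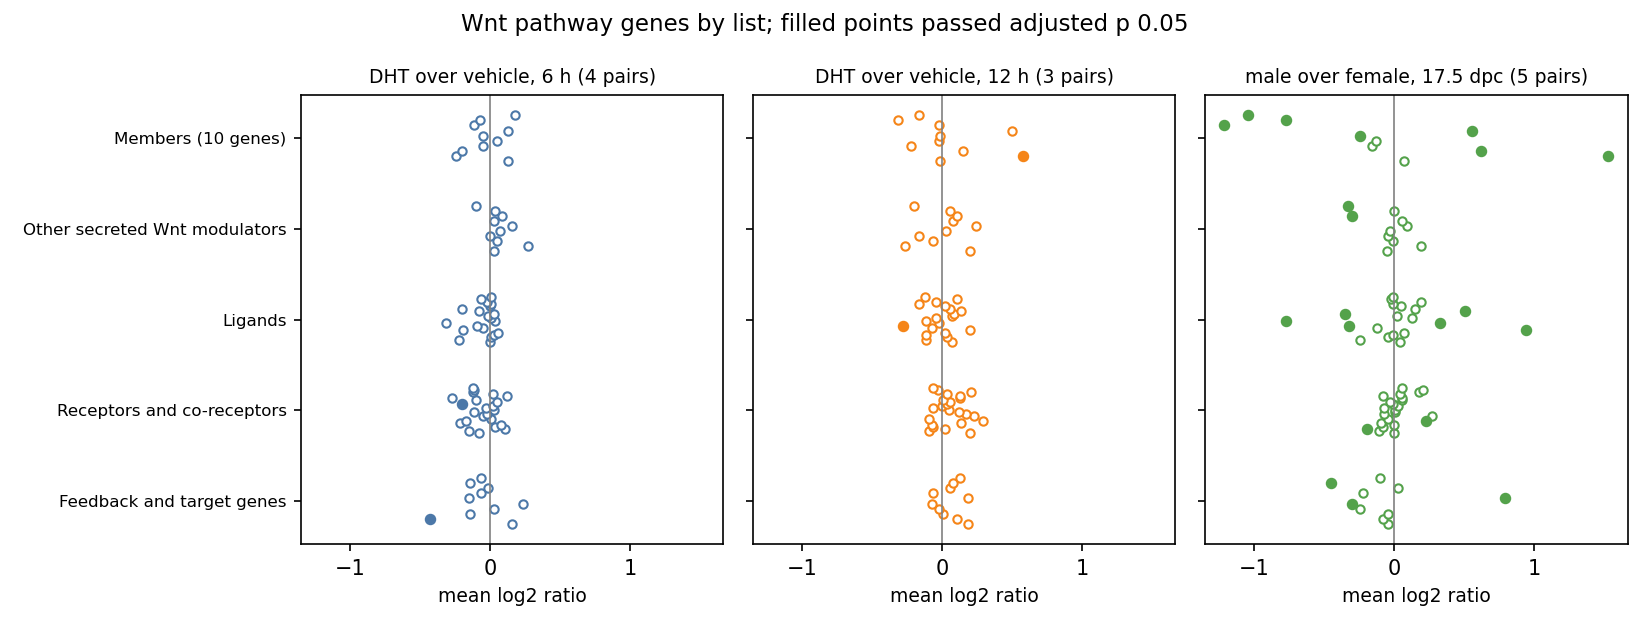
Mean log2 ratio (horizontal axis) of the 10 genes and of 4 Wnt pathway lists (rows) in 3 comparisons, brightest probe of each gene. Filled points passed an adjusted p of 0.05. Between the sexes, 7 of the 10 genes are filled, from −1.21 (Dkk2) to 1.53 (Wif1), and so are 13 of 63 other genes.

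For each gene called at least once, the 3 named genes with the most similar ratios over the 12 pairs were found among 17969 genes. The pairs share their comparison, day and array, so these likenesses are descriptions. Wif1 was most like Adamdec1 (r = 0.989), Efemp1 (0.988) and Aldh1a1 (0.983), and Aldh1a1, a retinaldehyde dehydrogenase, read −0.67, 0.41 and 2.49 in mean log2 ratio at 6 h, 12 h and between the sexes. Rspo3 was most like Fkbp5 (0.953), a chaperone gene induced by androgen in prostate, Kdm5d (0.952), which is Y-linked, and Slc39a8 (0.949). Rspo2 was most like Col8a1 (0.968), a collagen gene with −0.15, −0.63 and −1.74 in those comparisons, then Spats2l (0.961) and Slc26a7 (0.956). Dkk2 was most like Wnt9a (0.974), Rec8 (0.971) and Matn2 (0.955), and Rspo1 most like Gramd3 (0.965), Tars (0.949) and Pias2 (0.93). For Dkk3 they were Cd44 (0.946), Irf2bpl (0.939) and Zfp91 (0.903). For Sfrp2 they were Phf13 (0.936), Lysmd1 (0.903) and Tmem161a (0.869), whose mean ratios all lay between −0.10 and 0.10.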

How the data were processed

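RNA of UGS pools was amplified, labelled and hybridised on 2-colour Agilent arrays, per the labels' protocols. Per the file headers, the deposited scanner files came from Agilent Feature Extraction 7.5.1 (also named in the submitters' processing notes) and hold spot intensity and local background in both channels, and a log10 ratio of Cy5 over Cy3. The deposited series matrix holds log2 ratios, already turned for dye, with column medians of −0.0112 to 0.0108. How the authors centred them is not given in the sources used here.

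In R 4.3.3 with limma 3.58.1, intensities were corrected by normexp (offset 50) and normalised by loess, with weight 0 for control spots and outlier spots set to missing. Levels are per-channel log2 values after loess and Aquantile. Probes needed 1 channel well above background on 6 of 24 arrays. The 12 pairs were fitted together and p-values adjusted by Benjamini-Hochberg over 35477 probes, two-sided, threshold 0.05. Current RefSeq symbols came from accessions (21570 probes), from the file's symbol (5358) or from synonyms (4597), and 9649 probes kept the name in the file. The number of arrays limits precision.

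The genes and lists were chosen with earlier results of these data known. Every probe of the 10 genes is named, up to 8 called genes of the pathway lists per comparison, and the 3 most similar genes of each called gene. R-spondin receptors and the further modulators that did not pass, Wnt5b between the sexes, Nkd2, Axin2, Amhr2, Calb1 and the Y-linked genes were named after their values were seen. Deviations of same-numbered pairs of different comparisons correlated at r = −0.062 to 0.272, within the −0.329 to 0.332 of differently numbered pairs.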

Additional observations from a re-analysis of the deposited data

Results flagged for a closer look

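In groups of 4 or 5 pools, 5 of 72 sets of values held 1 value far from the others, where chance flags about 1 in 20. All 5 were at 6 h. In vehicle replicate 1, Sfrp1 had a log2 level of 9.0 against 9.34 to 9.37 in the other vehicle pools, and Dkk3 had 8.02 against 7.81 to 7.85. This is the vehicle pool without Y-linked RNA. Rspo1 in replicate 3 had a log2 ratio of −0.51 against 0.03 to 0.12, and its vehicle level there was 9.45 against 9.12 to 9.16. Rspo2 in DHT replicate 1 had a level of 8.50 against 8.41 to 8.42.

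Log2 ratios that differed between comparisons, by limma contrasts, were those of Wif1 between 12 h and 6 h (0.82, adjusted p = 0.0378), between the sexes and 6 h (1.76, adjusted p = 3.51e-06) and between the sexes and 12 h (0.95, adjusted p = 0.00191). Between the sexes and 6 h, differences were 0.82 for the brighter Rspo3 probe (adjusted p = 0.000837), −1.10 for Dkk2 (adjusted p = 0.00105), −0.70 for Rspo1 (adjusted p = 0.00795) and −1.22 for Rspo2 (adjusted p = 0.00029) in limma. Between the sexes and 12 h, they were 0.30 for the dim Rspo3 probe (adjusted p = 0.0136), −1.19 for Dkk2 (adjusted p = 0.00396) and −0.88 for Rspo2 (adjusted p = 0.0143) in limma.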

How the results depend on the processing

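Between the sexes, Wif1, Rspo3 (brighter probe), Sfrp2, Dkk2, Rspo2 and Rspo1 kept their direction and call under all 15 alternatives. Their log2 ratios ranged over 1.38 to 2.12, 0.52 to 1.28, 0.49 to 0.66, −1.32 to −1.06, −1.54 to −0.94 and −0.95 to −0.70. Dkk3 kept its call in 13 and lost it when fitted alone and without pair 4. The 7 calls became 6 to 7 when 1 pair was left out.

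At 12 h, Wif1 kept its call in 7 of 13 alternatives (0.41 to 0.93). Of the 12 probes, limma called 0 without background correction, 0 in the series matrix, 0 when fitted alone and 0 to 0 with 1 pair left out (3 to 7 at an unadjusted p under 0.05). It called 1 in the scanner's own ratio, 1 with the stricter filter (12 arrays), 1 with the brightest probe only and 4 on dye-swapped arrays only. Over all probes tested, those settings called 67, 30, 71 and 1940. At 6 h, 1 of the 12 probes passed on arrays without swap (Frzb), beside 5395 of all 35477 probes. On swapped arrays 2 passed (Rspo3, Wif1), beside 4545 of all probes. With 1 pair left out, limma called 0 to 0 at 6 h (1 to 2 at an unadjusted p under 0.05).

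Over all probes the 6 h count of 599 (26.9% higher) became 271 with median centring (3.32% higher), 50 in the scanner's ratio (8% higher), 996 in the matrix, 5395 and 4545 on arrays without and with swap, 312 fitted alone, 35 to 350 with 1 pair left out (35 without pair 1) and 2 with replicate 1 only. The 12 h count of 98 (35.7% higher) became 8 without background correction (75% higher), 28 with median centring (67.9% higher), 0 in the matrix, 172 without and 30 with the stricter filter, 4864 and 1940 on arrays without and with swap, 0 fitted alone and 0 to 0 with 1 pair left out. In limma those zeros had 4008 to 4611 probes at an unadjusted p under 0.05. Between the sexes, 2197 became 4085 on swapped arrays, 1017 fitted alone and 1326 to 2121 with 1 pair left out (1326 without pair 4).

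The 12 h minus 6 h count of 1 became 2 with median centring, 2 without filter, 0 in the matrix, 0 with 6 h replicate 1 only and 0 to 1 with 1 pair left out (0 without 6 h pair 2 or 4, or any 12 h pair). The sex minus 6 h count of 5 became 1 with 6 h replicate 1 only and 5 to 6 with 1 pair left out. The sex minus 12 h count of 4 became 2 with the replicate block and 3 to 5 with 1 pair left out. The block changed no other count of calls (1 and 5 for the other differences), and same-numbered pairs correlated within the range of other pairs. The cause of these changes was not tested. The 6 h replicate 1 setting was chosen after seeing the data, and its lone pair borrowed its spread from the other comparisons.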
